A study of Homo sapiens with 14 samples.

Results

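Oxidative phosphorylation mRNAs were followed in IMR90 cells, a widely used strain of human fetal lung fibroblasts, as 56 gene symbols chosen by name from the 54628 symbols in the count files. The members are the 13 mRNAs encoded by mitochondrial DNA and 43 mRNAs encoded in the nucleus, of which 39 specify subunits of complexes I to V and 4 specify the machinery that copies or transcribes mitochondrial DNA. The 14 libraries held 2 each of untreated wild type cells (WT) and of untreated cells with HMGB2 knocked down (siHMGB2). The other 10 libraries came from cells given inflachromene (ICM), a small molecule that binds HMGB1 and HMGB2, at 10 µM for up to 6 days to induce senescence. They comprised wild type cells (ICM 1 to ICM 4) and cells labelled as knockdowns of SRRM2, BANF1 or CTCF (siSRRM2, siBANF1, siCTCF, 2 libraries each). ICM 3, ICM 4 and the siCTCF libraries carry labels of another form, with cell line names that count up from IMR91 to IMR94 under titles that read IMR90, and were treated as a second set. No WT library belongs to that set, so set and treatment cannot be told apart between it and WT. The labels name 2 isolates of the cells without tying either to a library and do not say whether replicates were separate cultures, so p-values measure only the spread between these libraries.

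The respiratory chain moves electrons from NADH and succinate to oxygen through complexes I to IV and pumps protons across the inner mitochondrial membrane, and complex V (ATP synthase) uses that gradient to make ATP. Its subunits come from both genomes. Mitochondrial DNA supplies core subunits of complexes I, III, IV and V, transcribed as long precursors from either strand and cut at the tRNAs that lie between genes. All subunits of complex II, and the proteins that replicate and transcribe mitochondrial DNA, are nuclear products.

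Libraries held 22336161 to 58257456 counts assigned to genes. Small RNA genes took 3.19% to 6.06% of them in ICM 1, ICM 2, siSRRM2 and siBANF1 and 0.00522% to 0.00835% in the other 8 libraries. ICM 1 and siBANF1 1 stood apart from the other libraries: 16.35% and 18.44% of their reads fell outside annotated features, against 2.689% to 8.87% elsewhere. HMGB2 stood at 27.7 and 28.0 CPM (counts per 1000000 gene counts) in the WT libraries and 3.18 and 3.52 in siHMGB2, a log2 fold change of -3.0 that missed the threshold (edgeR adjusted p = 0.201). For CTCF the values were 94.9 and 91.9 CPM in ICM 3 and ICM 4, with 71.5 and 23.0 in siCTCF. SRRM2 values were 237.8 and 112.4 CPM for ICM 1 and ICM 2, 76.1 and 76.4 for the libraries labelled siSRRM2, and lower still, 59.0 and 17, for those labelled siBANF1. BANF1 was not lower in the libraries labelled siBANF1 (17 and 36.7 CPM) than in ICM 1 and ICM 2 (13.5 and 32.7), and the submitters' names for the files of these 4 libraries pair each with the other knockdown. Which gene was knocked down in them is therefore in doubt, and siSRRM2 and siBANF1 are used below as names of libraries only. All 12 fibroblast markers examined were above 1 CPM in every group, but their summed level ran from 21660 to 36990 CPM in the untreated libraries and from 2047 to 14890 in the ICM-treated ones. Other marker sums moved with the groups too, from 54.6 and 58.4 CPM in WT to 190.7 and 212.2 in ICM 3-4 for 7 epithelial markers and from 39.3 and 39.5 to 95.0 and 103.9 for 6 blood markers. The sum of 4 endothelial markers went from 7.27 and 7.36 CPM to 0.0788 and 0.878, and that of 3 smooth muscle markers from 10.2 and 13 to 0.946 and 2.84. The part of these shifts in the results below was not tested. Of the epithelial markers only KRT8 and KRT18, and of the blood markers only CD68, reached 1 CPM in both libraries of any group. The epithelial markers SFTPC and NKX2-1 and the T-cell marker CD3E were at 0 in all 14 libraries.

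The 13 mitochondrial mRNAs were abundant in untreated cells and, summed, took a smaller share of gene counts in every ICM-treated library. Together they made up 3.54% and 3.11% of the gene counts in WT and 3.44% and 2.7% in siHMGB2. In the first ICM set they made up 0.454% in ICM 1, 0.0677% in ICM 2, 0.0874% and 0.0675% in siSRRM2, and 0.754% and 0.0685% in siBANF1. In the second set they made up 0.241% and 0.252% in ICM 3 and ICM 4 and 0.251% and 0.215% in siCTCF. Untreated and treated libraries did not overlap, and the WT mean was 7.32 times the level of ICM 1, 49.1 times that of ICM 2, and 13.8 and 13.2 times those of ICM 3 and ICM 4. The group means were 3.33 ± 0.304% in WT, 0.261 ± 0.273% in ICM 1-2 and 0.246 ± 0.00778% in ICM 3-4 (SD, n = 2 each). ICM 1 and ICM 2 therefore agreed poorly with each other, whereas ICM 3 and ICM 4 lay close together. Since these are shares of sequenced RNA, less mitochondrial RNA per cell, fewer mitochondria and more of other RNA cannot be told apart. Library make-up differed as well. Reads without a unique place made up 14.46% to 20.67% of reads in the first ICM set and 7.147% to 7.668% in untreated libraries. Small RNA genes took 3.19% to 6.06% and 0.00774% to 0.00835% of gene counts. A difference in library make-up and the treatment therefore cannot be told apart between the first ICM set and WT.

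The 43 nuclear members showed no such loss. They summed to 5077 and 4448 CPM in WT, 4074 and 3954 in siHMGB2, 3510 in ICM 1, 6518 in ICM 2, 6905 and 6984 in siSRRM2, 3562 and 6791 in siBANF1, 6737 and 5998 in ICM 3 and ICM 4, and 6486 and 6352 in siCTCF. ICM 1 and siBANF1 1 lay below all 4 untreated libraries and the other 8 treated libraries lay above them. The ratio of mitochondrial to nuclear members was 6.83 to 8.45 in the untreated libraries. It was 1.29 in ICM 1 and 2.12 in siBANF1 1, 0.338 to 0.42 in the second set, and 0.0967 to 0.127 in ICM 2, siSRRM2 and siBANF1 2.

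**Figure D1:**
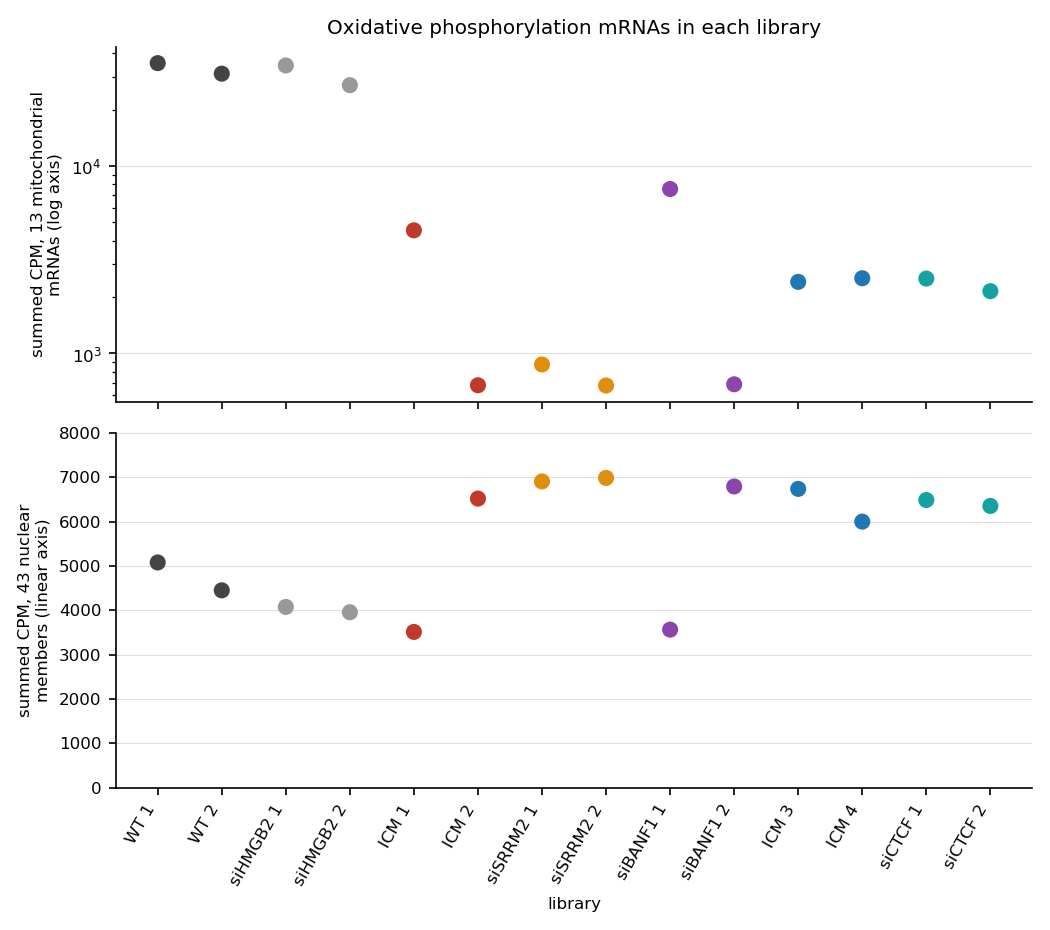
Summed CPM of the 13 mitochondrial mRNAs (top, log axis) and of the 43 nuclear members (bottom, linear axis from 0) in each of the 14 libraries, 1 point per library, coloured by group. The 4 untreated libraries are the highest in the top panel, while in the bottom panel ICM 1 (3510 CPM) and siBANF1 1 (3562 CPM) are the lowest and the other 8 treated libraries are above the untreated ones.

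Library by library, 12 of the 13 mitochondrial mRNAs were lower in all 10 ICM-treated libraries than in all 4 untreated ones. The exception was ATP8. Among the 33733 symbols with a count, 5.39% were lower without overlap in this way and 5.53% were higher. Among the 9202 symbols with a mean of 10 CPM or more the shares were 6.64% and 8.75%. None of the 43 nuclear members was separated in either direction. When ICM 1 and siBANF1 1 were left out, an alternative chosen after the data were seen, the same 12 mitochondrial mRNAs were lower in the remaining 8 libraries, against 9.4% of all symbols. In that comparison 20 of the 43 nuclear members were higher without overlap, against 12.7% of all symbols, and 0 were lower. ICM 1 and siBANF1 1, left out there, had the lowest nuclear sums, 3510 and 3562 CPM. The share among symbols with a mean of 10 CPM or more was not computed for the remaining 8 libraries.

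Complex I takes electrons from NADH, and 7 of its subunits are mitochondrially encoded. ND4, a proton-pumping subunit and the most counted of the 7 in untreated cells, was at 4220 and 3773 CPM in WT and 4568 and 3265 in siHMGB2. It was at 265.9 in ICM 1, 21.8 in ICM 2, 23.5 and 18.4 in siSRRM2, 657.2 and 21.5 in siBANF1, 247.2 and 275.0 in ICM 3 and ICM 4, and 261.1 and 234.7 in siCTCF. ND5, another proton-pumping subunit, kept the most of its WT level in the second set among the 7. It was at 1715 and 1721 CPM in WT, 1956 and 1598 in siHMGB2, 151.1 and 26.5 in ICM 1 and ICM 2, 23.8 and 20.2 in siSRRM2, 492.9 and 22.9 in siBANF1, 471.6 and 594.3 in ICM 3 and ICM 4, and 459.7 and 472.4 in siCTCF. All 4 second-set values of ND5 lay above those of ICM 1 and ICM 2 and below the untreated ones.

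ND6 is the only mRNA of the 13 read from the light strand of mitochondrial DNA. It was at 74.0 and 69.4 CPM in WT, 72.7 and 63.4 in siHMGB2, 2.15 and 2.51 in ICM 1 and ICM 2, 3.12 and 2.03 in siSRRM2, 2.64 and 2.85 in siBANF1, 17.9 and 10.5 in ICM 3 and ICM 4, and 17.9 and 9.04 in siCTCF. Unlike the other mitochondrial mRNAs, it was no higher in ICM 1 and siBANF1 1 than in the rest of the first set. How strand was handled in counting is not given in the sources used here, so ND6 reads and reads of RNA from the opposite strand cannot be told apart.

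Complex III passes electrons to cytochrome c, and CYTB is its mitochondrially encoded subunit. CYTB was at 1928 and 1673 CPM in WT, 2006 and 1453 in siHMGB2, 112.7 and 16.3 in ICM 1 and ICM 2, 17.4 and 15.0 in siSRRM2, 426.2 and 15.7 in siBANF1, 182.1 and 161.0 in ICM 3 and ICM 4, and 191.5 and 145.9 in siCTCF. All 10 treated values lay below the untreated ones.

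Complex IV reduces oxygen, and its catalytic core is the mitochondrially encoded COX1, COX2 and COX3. COX1 was the most counted member of all in WT, at 11680 and 10650 CPM, with 12060 and 9643 in siHMGB2. It was at 2396 and 312.7 in ICM 1 and ICM 2, 336.8 and 266.1 in siSRRM2, 3496 and 315.5 in siBANF1, 451.5 and 461.8 in ICM 3 and ICM 4, and 441.9 and 399.3 in siCTCF. COX3 showed another order of the sets. It was at 4957 and 3981 CPM in WT, 3796 and 3431 in siHMGB2, 781.5 and 133.6 in ICM 1 and ICM 2, 323.6 and 247.8 in siSRRM2, 932.8 and 156.5 in siBANF1, 128.4 and 111.7 in ICM 3 and ICM 4, and 144.6 and 103.6 in siCTCF. The second set thus held more ND5 than ICM 2, while ICM 2 lay within the second set's range for COX3.

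Complex V contains ATP6, part of its proton channel, and the small subunit ATP8. ATP6 was at 1886 and 1467 CPM in WT, 1809 and 1234 in siHMGB2, 62.9 and 8.44 in ICM 1 and ICM 2, 7.91 and 6.56 in siSRRM2, 141.1 and 7.4 in siBANF1, 74.1 and 73.6 in ICM 3 and ICM 4, and 82.2 and 61.2 in siCTCF. ATP8 was barely counted anywhere: 946 counts over the 14 libraries and at most 4.92 CPM. It was at 2.47 and 0.933 in WT and at 2.89 and 4.02 in ICM 3 and ICM 4. The ATP8 gene (chromosome MT, 8366 to 8572, 207 bases) shares its last 46 bases, 22.2% of its length, with the start of ATP6, and ND4L shares its last 7 with ND4. The ends of ATP8 and ND4L are shown because reads over a shared stretch belong to both genes; each line ends with the gene's last base, the shared bases are in capitals, and the letters are those of the GENCODE v29 transcripts.
ATP8: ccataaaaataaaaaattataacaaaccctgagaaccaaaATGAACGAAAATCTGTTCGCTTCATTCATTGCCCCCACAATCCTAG
ND4L: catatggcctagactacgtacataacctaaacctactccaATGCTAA
The shared capitals of both lines begin with the ATG start codon of the second gene.

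**Figure D2:**
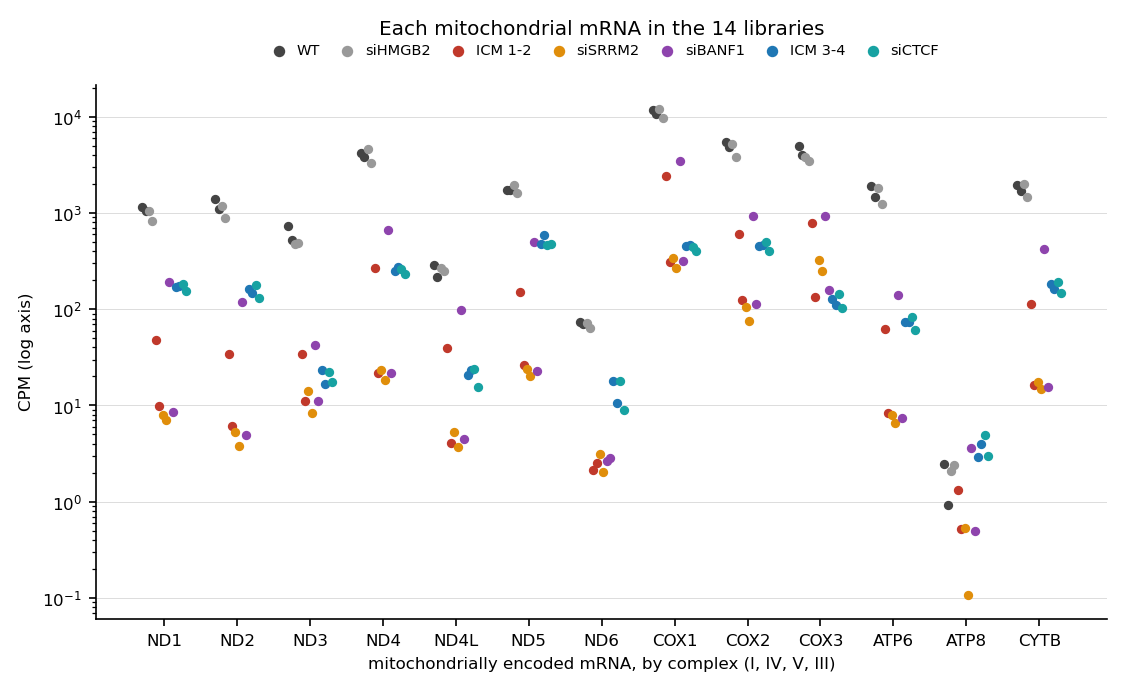
CPM of each of the 13 mitochondrial mRNAs (log axis) in each library, 1 point per library, coloured by group and drawn from left to right in the order of the groups in the legend. For every mRNA except ATP8 the 4 untreated libraries lie above all 10 treated ones, and ND6 alone has ICM 1 (2.15 CPM) and siBANF1 1 (2.64 CPM) beside the other libraries of the first set.

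The make-up of the mitochondrial mRNA pool differed between the sets. COX1 took 33.0% and 34.3% of the counts of the 13 mRNAs in WT, 52.8% and 46.2% in ICM 1 and ICM 2, and 18.8% and 18.3% in ICM 3 and ICM 4. ND5 took 4.84% and 5.54% in WT, 3.33% and 3.91% in ICM 1 and ICM 2, and 19.6% and 23.6% in ICM 3 and ICM 4. The siCTCF libraries, at 18.3% and 22.0% for ND5, resembled their own ICM controls. COX3 took 14% and 12.8% in WT, 17.2% and 19.7% in ICM 1 and ICM 2, 12.4% and 22.9% in siBANF1, and 37.0% and 36.7% in siSRRM2. The siSRRM2 libraries stood above all 12 others in this share, and in both of them COX3 was the highest mRNA per kilobase of transcript. Per kilobase COX2 led in both WT libraries, by 1.04 and 1.03 times over COX1, and COX1 led in both siHMGB2 libraries, by 1.03 and 1.11 times over COX2, so these 2 did not differ beyond the spread between untreated libraries. COX2 also led in all 4 libraries of the second set, by 2.08 to 2.53 times over the next mRNA. The counts of COX1 were 6.03 to 6.81 times those of ND5 in untreated libraries, 7.09 to 15.9 times in the first ICM set and 0.777 to 0.961 times in the second set.

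**Figure D3:**
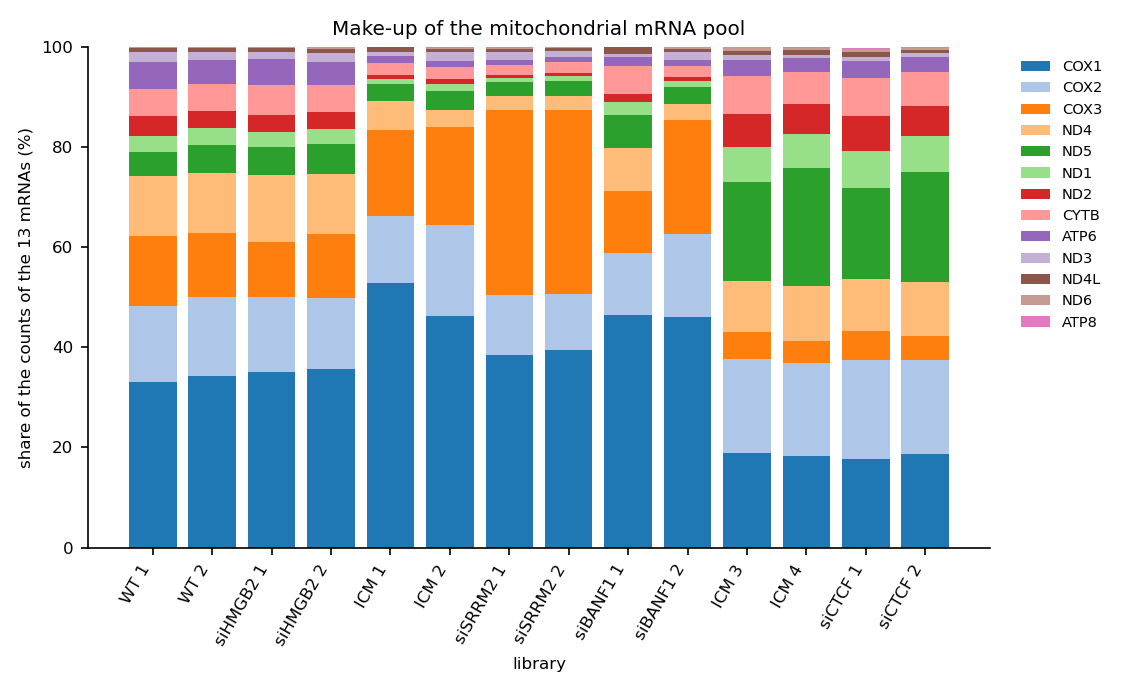
Share of each of the 13 mRNAs in their summed counts (stacked bars, percent from 0 to 100) in each library. COX3 fills 37.0% and 36.7% of the siSRRM2 bars, and ND5 fills 18.3% to 23.6% of the 4 bars of the second set, against 4.84% to 5.92% in untreated libraries.

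The 2 mitochondrial rRNAs were lower in treated cells as well. RNR2, the large-subunit rRNA, was at 6461 and 6036 CPM in WT, 847.4 and 492.1 in ICM 1 and ICM 2, 133.8 and 87.3 in siSRRM2, and 1121 and 1066 in ICM 3 and ICM 4. Its means were 4893 ± 713 CPM in siHMGB2, 946.8 ± 843 in siBANF1 and 1261 ± 463 in siCTCF (SD, n = 2 each). The ratio of rRNA to mRNA was 0.177 to 0.218 in untreated libraries, 0.198 in ICM 1 and 0.841 in ICM 2. It was 0.16 and 0.138 in siSRRM2, 0.228 and 0.538 in siBANF1, and 0.461 to 0.7 in the second set. The RNA selection is not given in the sources used here, and its part in the rRNA levels was not tested. Copies of mitochondrial genes in the nuclear genome can share reads with their parents. MTATP6P1, the most counted, held 5.73% to 17.8% as many counts as ATP6, and the copy MTND2P28 0.0521% to 8.17% as many as ND2; the copies of the other members held at most 2.75% as many as their parent.

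In the fit of ICM 1-2 against WT, edgeR's quasi-likelihood test called 10 of the 13 mitochondrial mRNAs lower and 0 higher at a Benjamini-Hochberg adjusted p under 0.05. Of all 19126 genes tested, 6.86% were called lower and 6.63% higher. The median log2 fold change of the 13 was -4.87, against 0.10 over all genes. The steepest fall was that of ND2 (-6.03, SE 1.31, adjusted p = 0.0155), followed by ATP6 (-5.63, SE 1.29, adjusted p = 0.0194) and ND1 (-5.32, SE 1.22, adjusted p = 0.0196). ND6 fell with the smallest error (-5.08, SE 0.45, adjusted p = 0.000175). CYTB (-4.88), ND3 (-4.89), ND4 (-4.87), ND5 (-4.36), COX2 (-3.90) and COX3 (-3.37) were also called. ND4L, COX1 and ATP8 were not, at -3.61, -3.12 and -1.0 (adjusted p = 0.0769, 0.0735 and 0.497). No member and no other gene passed in an edgeR fit to these 4 libraries alone (3664 genes at an unadjusted p under 0.05). With WT 1, WT 2 or ICM 2 left out, the median of the 13 was -4.63, -4.96 or -4.0. Fewer of the 13 then passed, as did fewer of all genes. Without ICM 1 and siBANF1 1 the ICM 1-2 arm was ICM 2 alone, assumed to vary like the other groups, and the call covered 12 of 13, all but ATP8, with a median of -6.17. In that fit 22.4% of all genes were called lower and 22.4% higher.

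Of the 43 nuclear members 41 passed the filter on low counts, and in ICM 1-2 against WT 1 of them was called, COX4I1, a structural subunit of complex IV. COX4I1 had 367.5 and 297.0 CPM in the WT libraries, 154.8 in ICM 1 and 217.3 in ICM 2, a log2 fold change of -0.98 (SE 0.24, edgeR adjusted p = 0.023). That call was lost without WT 1, WT 2 or ICM 1 (adjusted p = 0.175, 0.0788 and 0.0621) and in a fit to the 4 libraries alone (0.2). The median of the 41 was 0.00, with values from -0.98 to 0.73. The highest and lowest of each remaining complex, none of them called, were NDUFB3 (0.71) and NDUFS7 (-0.69) in complex I, SDHB (0.73) and SDHC (-0.64) in complex II, CYC1 (0.67) and UQCRC1 (-0.42) in complex III, and ATP5PB (0.41) and ATP5F1B (-0.17) in complex V. Among the maintenance genes they were POLG (0.49) and POLRMT (0.02). With ICM 2 alone against WT, the spread again taken from the other groups, 16 of 41 nuclear members were called higher and 2 lower (COX4I1 and SDHC), where 22.4% of all genes were called in each direction. The median was 0.33, against 0.03 over all genes. Those called higher included NDUFB3 (1.30, adjusted p = 0.00033), the electron carrier CYC1 (1.29, adjusted p = 0.00018), the iron-sulfur subunit SDHB of complex II (1.19, adjusted p = 0.000417) and the peripheral-stalk subunit ATP5PB of complex V (0.84, adjusted p = 0.00192). The nuclear call thus rested on which libraries entered: CYC1 was at 88.6 and 81.6 CPM in WT, 65.0 in ICM 1, 67.7 in siBANF1 1 and 240.9 in ICM 2.

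In ICM 3-4 against WT, 9 of the 13 mitochondrial mRNAs were called lower and 0 higher by edgeR, against 16% lower and 14.3% higher of all genes. The median of the 13 was -3.72, against -0.02 over all genes. COX3 fell most (-5.45, SE 1.00, adjusted p = 0.0041), then ND3 (-5.20, SE 0.77, adjusted p = 0.00163) and COX1 (-4.85, SE 1.14, adjusted p = 0.012). ATP6 (-4.75), ND4 (-4.18), ND4L (-3.76), COX2 (-3.72), CYTB (-3.63) and ND6 (-2.56) were also called. ND1 (-2.91), ND2 (-3.25) and ND5 (-1.93) were not (adjusted p = 0.0649, 0.0536 and 0.186), nor was ATP8 (0.77, adjusted p = 0.547). In a fit to these 4 libraries alone, and in the fit without ICM 1 and siBANF1 1, all but ATP8 were called. The first of these fits called 27.3% of all genes lower and 27.8% higher, and the second 27.7% and 26.2%. With WT 1, WT 2, ICM 3 or ICM 4 left out, the median of the 13 was -3.55, -3.81, -3.77 or -3.68. Fewer of the 13 were then called, as were fewer of all genes.

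Of the 41 nuclear members tested, 5 were called higher and 2 lower in ICM 3-4 against WT, with a median of 0.15. Both shares, 5 and 2 of 41, are no larger than those of all genes. A fit to these 4 libraries alone called 16 (14 higher, 2 lower), where 27.8% of all genes were called higher and 27.3% lower. With 1 of the 4 libraries left out, the nuclear median was 0.07 to 0.31. Fewer nuclear members were then called, as were fewer of all genes. In complex I, NDUFA2, an accessory subunit, rose from 38.8 and 30.2 CPM to 94.1 and 75.6 (log2 1.06, SE 0.30, edgeR adjusted p = 0.0252). NDUFV1, which binds NADH and its flavin cofactor, fell from 67.6 and 65.9 to 37.7 and 27.6 (-1.26, SE 0.27, adjusted p = 0.00838). ATP5F1A, the alpha subunit of the catalytic head of complex V, fell from 442.1 and 413.8 to 305.9 and 251.0 (-0.85, SE 0.25, adjusted p = 0.0278). The calls of NDUFA2 and ATP5F1A were lost on leaving out any 1 of the 4 libraries (adjusted p = 0.0543 to 0.181 and 0.0573 to 0.184), and that of NDUFV1 without ICM 4 (0.0697). The partner of ATP5F1A, ATP5F1B, the beta subunit, had 715.6 and 654.2 CPM in the WT libraries, 1357 in ICM 3 and 1163 in ICM 4, a log2 fold change of 0.64 that was not called. In complexes II and IV no member was called; SDHB (1.01) and COX7B (1.07) had the highest values and SDHA (-0.32) and COX6C (-0.65) the lowest.

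Of the 4 genes that maintain or transcribe mitochondrial DNA, 3 rose in ICM 3-4 while the mitochondrial mRNAs were low. POLG, the catalytic subunit of the mitochondrial DNA polymerase, was at 50.6 and 56.3 CPM in WT, 61.5 and 67.3 in siHMGB2, 54.5 and 112.6 in ICM 1 and ICM 2, and 164.1 and 182.9 in ICM 3 and ICM 4 (ICM 3-4 against WT: 1.46, SE 0.28, edgeR adjusted p = 0.00495). TWNK, the replicative helicase, was at 17.4 and 14.9 in WT, 9.53 and 34.0 in ICM 1 and ICM 2, and 56.6 and 55.4 in ICM 3 and ICM 4 (1.56, SE 0.46, adjusted p = 0.0275). POLRMT, the mitochondrial RNA polymerase, was at 37.1 and 32.1 in WT, 33.4 and 44.3 in ICM 1 and ICM 2, and 70.5 and 70.6 in ICM 3 and ICM 4 (0.79, SE 0.22, adjusted p = 0.0214). TFAM, which packages mitochondrial DNA and starts its transcription, was at 40.4 in both WT libraries, 26.2 and 76.1 in ICM 1 and ICM 2, and 39.7 and 62.2 in ICM 3 and ICM 4, and was not called (0.08). Leaving out any 1 of the 4 compared libraries ended the calls of TWNK (adjusted p = 0.0843 to 0.157) and POLRMT (0.0684 to 0.164), while that of POLG was lost without WT 1 (0.0509). The siCTCF libraries had values close to ICM 3 and ICM 4 for POLG (147.3 and 175.3) and TWNK (54.6 and 51.6).

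**Figure D4:**
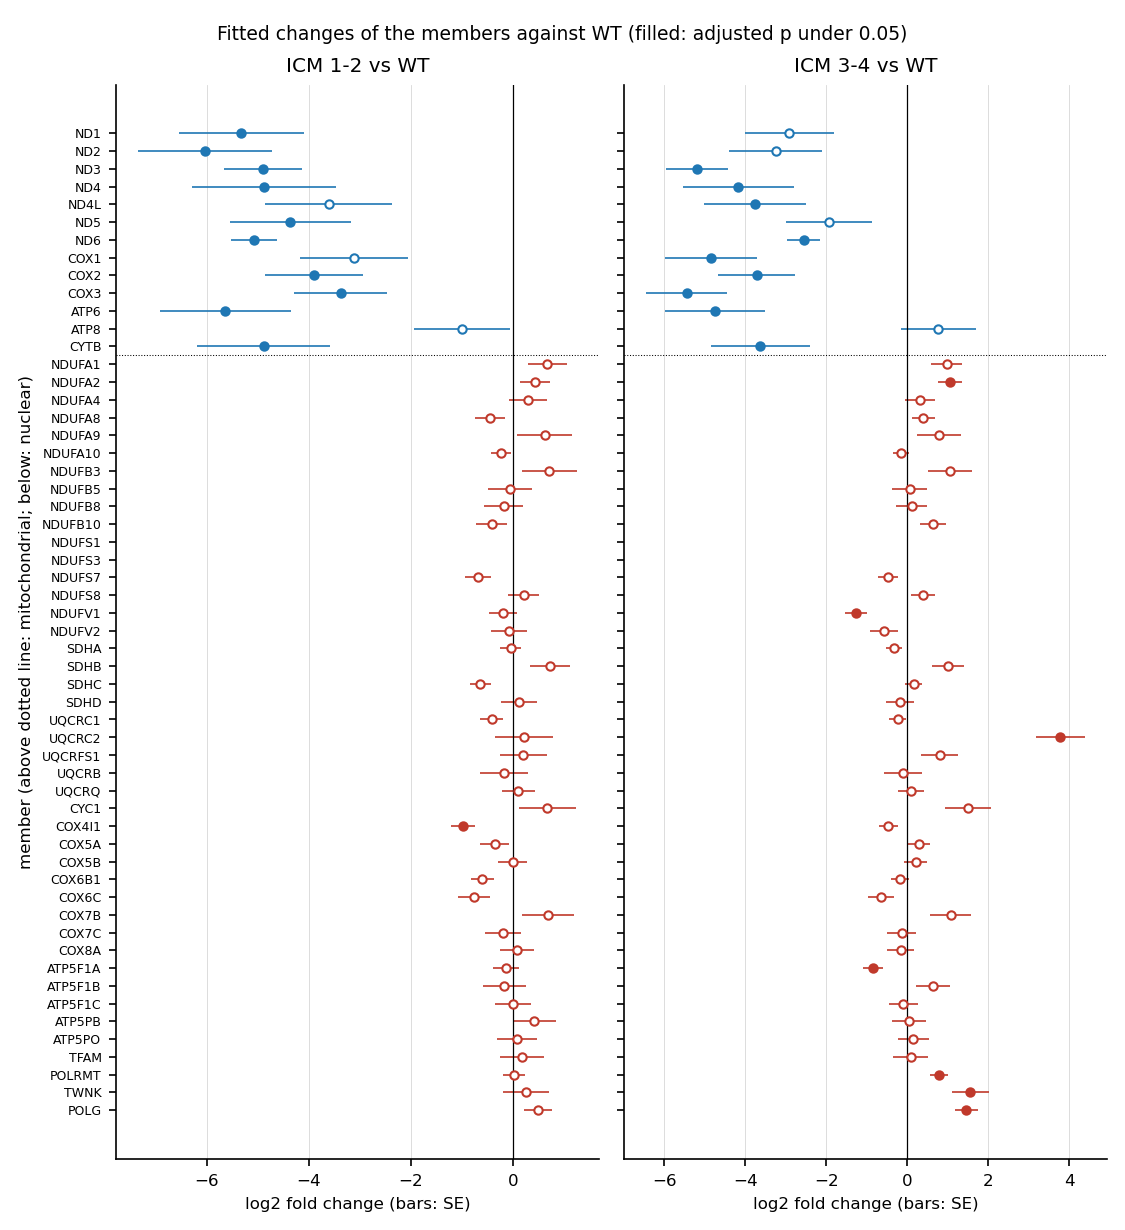
Fitted log2 fold change of each member tested (horizontal axis, bars give the SE) in ICM 1-2 against WT (left) and ICM 3-4 against WT (right). Filled points passed an adjusted p of 0.05, mitochondrial mRNAs are above the dotted line and nuclear members below it; NDUFS1 and NDUFS3 were not tested. The mitochondrial mRNAs lie far to the left (medians -4.87 and -3.72) and the nuclear members scatter around 0 (medians 0.00 and 0.15), with UQCRC2 the exception at 3.78 on the right.

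The annotated symbols did not all carry reads. NDUFS1, the largest complex I subunit, had 3 counts in the 14 libraries together and NDUFS3, a core subunit of the same complex, had 14, so neither was tested. UQCRC2, a core subunit of complex III, was at 0.412 to 1.27 CPM in the 10 libraries of the first set and untreated cells and at 12.3, 14.9, 13.5 and 13 in the second set. Its partner UQCRC1 had 296.3 and 247.5 CPM in the WT libraries, 286.5 in ICM 3 and 255.2 in ICM 4. The fitted rise of UQCRC2 in ICM 3-4 was 3.78 against WT (SE 0.61, edgeR adjusted p = 0.00233) and 3.56 against ICM 1-2 (SE 0.60, adjusted p = 0.00401). ICM 1 and ICM 2, at 0.902 and 1.23, lay within the range of the untreated libraries, 0.412 to 1.27. The annotation used in counting is not given in the sources used here. For NDUFS1, NDUFS3 and UQCRC2, low RNA and reads lost in counting therefore cannot be told apart. Nor can a rise of UQCRC2 and a difference in counting between the sets.

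Among all nuclear members ATP5F1B was the most abundant per length, at 372.4 CPM per kilobase of exon in WT and 685.0 in ICM 3-4. It was followed in WT by COX8A at 219.7 and COX4I1 at 187.0, and the 4 maintenance genes lay between 4.21 and 11.8. The mitochondrial mRNAs stood above all of these in WT, with COX2 at 7525 and COX1 at 7240 CPM per kilobase, except ND6 at 136.5 and ATP8 at 8.23. In siSRRM2 COX3 remained at 364.4 per kilobase, below the 398.3 of COX8A and the 448.6 of ATP5F1B. All but 3 of the other 12 mitochondrial mRNAs were there at 15.2 or below.

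Promoter letters were taken from RefSeq (GRCh38.p14, 250 bases before to 50 after the start), in which 35 of the 43 nuclear members had an entry. NRF1, ETS-family factors and YY1 are known regulators of nuclear respiratory genes, and 1 short motif for each was searched on both strands. GCGCATGC (NRF1) was in 20% of the 35 promoters and in 3.27% of 27305 promoters overall. CCGGAAG (ETS) was in 31.4% and 10.7%, and AAGATGG (YY1) in 22.9% and 6.06%. The 3 motifs share no letters where they matched below, though a GCGCATGC match can overlap its own match on the other strand. Shown are POLRMT, called higher in ICM 3-4, COX4I1, called lower in ICM 1-2, and SDHB, which held all 3 motifs; 280 bases each, 5′ to 3′ on the gene's strand and ending 30 bases after the start, with matches in capitals.
POLRMT: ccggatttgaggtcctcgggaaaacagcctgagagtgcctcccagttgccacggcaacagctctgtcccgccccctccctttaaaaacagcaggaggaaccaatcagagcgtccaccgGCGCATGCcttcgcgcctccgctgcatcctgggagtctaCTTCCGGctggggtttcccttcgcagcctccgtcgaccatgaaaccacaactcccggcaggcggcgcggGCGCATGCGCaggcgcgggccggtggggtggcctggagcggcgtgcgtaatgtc
SDHB: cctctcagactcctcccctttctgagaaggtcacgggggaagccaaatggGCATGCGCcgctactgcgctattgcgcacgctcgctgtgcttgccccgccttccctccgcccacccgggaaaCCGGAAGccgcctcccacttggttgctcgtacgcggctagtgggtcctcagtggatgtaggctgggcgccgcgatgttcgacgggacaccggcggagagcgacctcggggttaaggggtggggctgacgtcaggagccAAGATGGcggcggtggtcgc
COX4I1: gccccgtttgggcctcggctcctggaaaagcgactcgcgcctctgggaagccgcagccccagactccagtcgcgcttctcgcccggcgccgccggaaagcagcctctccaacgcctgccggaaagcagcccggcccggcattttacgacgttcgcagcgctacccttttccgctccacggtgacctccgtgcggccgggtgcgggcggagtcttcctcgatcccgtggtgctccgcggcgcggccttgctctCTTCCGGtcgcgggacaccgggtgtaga
POLRMT (chr19:633508-633787, minus strand) held 3 NRF1 matches, a pair of them overlapping, and 1 ETS match. SDHB lies at chr1:17054003-17054282 on the minus strand and COX4I1, with 1 ETS match, at chr16:85799445-85799724 on the plus strand. A match is a run of letters and not a measured binding site.

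The ICM libraries of the 2 sets also differed from each other. In ICM 3-4 against ICM 1-2 edgeR called 1 of the 13 mitochondrial mRNAs, ND6, higher (2.52, SE 0.40, adjusted p = 0.00338) and 0 lower, where 8.53% of all genes were called higher and 11% lower. ND2 (2.77), ND5 (2.42) and ND1 (2.41) were higher by estimates that did not pass (adjusted p = 0.105, 0.135 and 0.132), and COX3 (-2.09) and COX1 (-1.73) lower by estimates that did not pass (0.109 and 0.235). Against ICM 2 alone, with ICM 1 and siBANF1 1 left out and the spread taken from the other groups, COX3 was at -0.19 and COX1 at 0.51, neither called. In that fit 10 of 13 were called higher, with a median of 2.69, against 12.3% higher and 14% lower of all genes. Of the nuclear members 5 were called higher and 1 lower. Besides UQCRC2 these were NDUFB10 (1.06, adjusted p = 0.0399), an accessory subunit of complex I; SDHC (0.80, adjusted p = 0.0256), a membrane anchor of complex II; POLRMT (0.76, adjusted p = 0.0322); POLG (0.97, adjusted p = 0.0327); and NDUFV1, the member called lower (-1.06, adjusted p = 0.0229). Of these 6, UQCRC2 alone kept its call without ICM 1, without ICM 4 or in a fit to the 4 libraries alone, and in that last fit ND6 was not called (0.0768). Without ICM 3, UQCRC2 and NDUFV1 kept theirs. Without ICM 2 the nuclear median was 0.74, from 0.21 in the fit of all libraries. More nuclear members were then called, as were more of all genes.

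None of the 4 knockdown comparisons called a member. In siHMGB2 against WT edgeR called 0% of all genes in either direction, with 908 genes at an unadjusted p under 0.05 and 73 called by DESeq2. The median log2 fold change was -0.02 for the 13 mitochondrial mRNAs and -0.13 for the nuclear members, of which 31 of 41 had a value below 0. TFAM had the lowest value (-0.85), at 40.4 CPM in both WT libraries and 24.1 and 19.0 in siHMGB2. In a fit to these 4 libraries alone TFAM was called (-0.84, adjusted p = 0.00193), with NDUFV2 (-0.56), COX5B (-0.50), COX6C (-0.49) and CYC1 (-0.43), where 4.74% of all genes were called lower and 6.14% higher.

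In the libraries labelled siSRRM2 against ICM 1-2, edgeR called 0.0784% of all genes lower and 0.0993% higher, with 2168 genes at an unadjusted p under 0.05 and 727 called by DESeq2. The 13 mitochondrial mRNAs had a median of -2.07, and 12 of them lay below 0. The nuclear members had a median of 0.45, against -0.10 over all genes, and 39 of 41 lay above 0, with CYC1 highest (1.16, adjusted p = 0.477). These estimates lean on ICM 1: without it and siBANF1 1 the control was ICM 2 alone, assumed to vary like the other groups. The median of the 13 was then 0.02, COX3 was called higher (1.17, adjusted p = 0.034) and POLG lower (-0.58, adjusted p = 0.0346), with 4.61% of all genes called higher and 5.52% lower. COX3 in siSRRM2 (323.6 and 247.8 CPM) lay above ICM 2 (133.6) and below ICM 1 (781.5).

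In the libraries labelled siBANF1 against ICM 1-2, edgeR called 0% of all genes, with 591 at an unadjusted p under 0.05 and 17 called by DESeq2. The medians were 1.23 for the mitochondrial mRNAs and 0.03 for the nuclear members. The mitochondrial median leaned on single libraries. It was 3.3 without ICM 1, -2.05 without siBANF1 1 and -0.02 without both. With replicate number as a block it was 0.65. Libraries of the same number resembled each other here, with COX1 at 3496 and 315.5 CPM in siBANF1 and 2396 and 312.7 in ICM 1 and ICM 2. In siCTCF against ICM 3-4, edgeR called 0% of all genes, with 125 at an unadjusted p under 0.05 and 0 called by DESeq2. The 13 mitochondrial mRNAs had fold changes from -0.19 to 0.21 on the log2 scale with a median of -0.03, and the nuclear members from -0.19 to 0.28 with a median of -0.02. The standard errors of the mitochondrial mRNAs, 0.38 (ND6) to 1.2 (ND4), set how small a change could be seen. Over all genes siCTCF 1 resembled ICM 3 and siCTCF 2 resembled ICM 4, and the fit did not pair them.

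The remaining nuclear genes of the pathway, from lists written with earlier results of these data known, were counted in the same way. Of 48 further subunits of complexes I, III, IV and V, 43 were tested. In ICM 1-2 against WT 0 were called higher and 4 lower, against 6.63% and 6.86% of all genes, with a median of -0.05, and ATP5F1D, the delta subunit of complex V, was the lowest named (-2.37, edgeR adjusted p = 0.00365). In ICM 3-4 against WT 2 were called higher and 3 lower, against 14.3% and 16% of all genes, with a median of 0.22; ATP5MF was highest (1.18, adjusted p = 0.0479) and NDUFA5 lowest (-1.77, adjusted p = 0.00152).

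Proteins that build the complexes or the mitochondrial ribosome, which translates the 13 mRNAs, had medians above that of all genes (-0.02) in ICM 3-4 against WT. By calls they did not exceed the 14.3% of all genes called higher there. Of 48 assembly factors tested 6 were called higher and 1 lower against WT, with a median of 0.67 and UQCC1, a complex III assembly factor, highest (1.78, edgeR adjusted p = 0.0172). Of 79 mitochondrial ribosomal proteins 7 were called higher and 1 lower, with a median of 0.74, MRPS6 highest (1.94, adjusted p = 0.00101) and MRPS25 lowest (-0.65, adjusted p = 0.0467). In ICM 1-2 against WT 1 was called higher and 1 lower among the ribosomal proteins (MRPS6, 0.83, and MRPL12, -1.62), with a median of 0.27. Without ICM 1 and siBANF1 1 those called higher numbered 52 of 80 in ICM 2 alone, against 22.4% of all genes, and 54 of 80 in ICM 3-4, against 26.2%. Among regulators of mitochondrial biogenesis, the energy sensor PRKAA1 fell in ICM 3-4 against WT (-1.56, adjusted p = 0.00124) and the deacetylase SIRT1 rose (1.27, adjusted p = 0.043). In the citric acid cycle OGDH rose (1.83, adjusted p = 0.00182) and IDH2 fell (-3.55, adjusted p = 0.00592) in the same comparison.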

How the data were processed

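The authors deposited raw counts, whole numbers for each gene symbol, for paired-end TruSeq libraries of total RNA, per the labels' protocols. The submitters' processing notes name STAR 2.7.3a, HTSeq 0.12.4, DESeq2 1.36.0 and hg38; the annotation, the strand setting and the RNA selection are not given in the sources used here. The 5 lines for reads given to no gene (12.75% to 41.78% of reads) were left out. CPM used total gene counts. One fit of all 14 libraries in 7 groups (edgeR 4.0.16, R 4.3.3, filterByExpr, TMM, quasi-likelihood F-test, 7 residual degrees of freedom) gave Benjamini-Hochberg adjusted p-values over 19126 genes, called under 0.05. It was tried on simulated counts with the same spread for all genes and groups. That trial does not cover the unequal spread of these libraries. Lengths and coordinates came from RefSeq and GENCODE v29. The members and lists were chosen with earlier results of these data known. Named were all 13 mitochondrial mRNAs, nuclear members called (or, in a complex with none, the highest and lowest) and, of other lists, the called genes with the highest and lowest change at a mean of at least 10 CPM; CPM examples of other members were chosen after their values were seen. Alternatives were scaling by relative log expression or total counts, no filter, a minimum mean of 10 CPM, protein-coding genes only, DESeq2 1.42.0, compared libraries only, a replicate block, leaving out each library and, chosen after the data were seen, leaving out ICM 1 and siBANF1 1. Other steps used Python 3.11.15, pandas 2.3.3 and matplotlib 3.10.9.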

Additional observations from a re-analysis of the deposited data

Results flagged for a closer look

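The ICM libraries of the 2 sets differed from each other for 7 members, by the edgeR test of ICM 3-4 against ICM 1-2. The same test called 8.53% of all 19126 genes higher and 11% lower. Counting calls in both directions, the 7 were a smaller share of the members tested than the 3739 called were of all genes. By direction, the members' share was below that of all genes for lower calls and above it for higher calls. The log2 differences were 2.52 for ND6, 1.06 for NDUFB10, -1.06 for NDUFV1, 0.80 for SDHC, 3.56 for UQCRC2, 0.76 for POLRMT and 0.97 for POLG. The second set has no WT library, so an effect of ICM within it was not measured, and set and treatment cannot be told apart. Of the 6 nuclear members UQCRC2 alone kept its call without ICM 1, without ICM 4 or with compared libraries only. ND6 lost its call in that last edgeR fit (adjusted p = 0.0768). For UQCRC2 a rise and a difference in counting between the sets cannot be told apart.

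The 3 mitochondrial tRNA symbols TRNI, TRNT and TRNW, which are not members, were counted above the untreated level in ICM 1 and siBANF1 1. TRNW reached 8.37 CPM in siBANF1 1 and 4.45 in ICM 1, against 0.0274 to 0.243 in the untreated libraries and at most 0.792 in the other 8. TRNT reached 5.17 and 4.73 CPM, against 0.323 to 0.656, and TRNI 3.04 and 2.25, against 0 in all 4 untreated libraries. In the other 8 treated libraries TRNT reached at most 1.05 CPM and TRNI at most 0.429. The highest value of each of the 3 symbols there thus also exceeded the untreated range. ICM 1 and siBANF1 1 are the libraries with the most reads outside annotated features. TRNS1, a more abundant mitochondrial tRNA symbol in WT (23.0 and 18.1 CPM), went the other way, at 0.266 in ICM 1 and 0.387 in ICM 2 (log2 -6.1, edgeR adjusted p = 0.00123).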

How the results depend on the processing

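Counts of members called are given by edgeR unless DESeq2 is named. Leaving out 1 of a pair leaves an arm of 1 library, assumed to vary like the other groups. Calls over all genes moved with the setting too. Between WT, ICM 1-2 and ICM 3-4, leaving out 1 compared library mostly lowered them. They rose for ICM 1-2 against WT without ICM 1 and for ICM 3-4 against ICM 1-2 without ICM 2. In the fit of all 14 libraries they numbered 2580 (ICM 1-2 against WT), 5796 (ICM 3-4 against WT) and 3739 (ICM 3-4 against ICM 1-2) of 19126. With compared libraries only they numbered 0 of 16617, 8648 of 15677 and 136 of 16195. Without ICM 1 and siBANF1 1, ICM 3-4 against WT had 10567 of 19598. For ICM 1-2 against WT the 10 mitochondrial calls became 6 at a minimum mean of 10 CPM, 0 with compared libraries only and 2 to 12 when 1 library was left out. The 1 nuclear call became 0 with no filter or compared libraries only, 2 at a minimum mean of 10 CPM or by DESeq2, 0 to 2 when 1 library was left out, and 18 without ICM 1 and siBANF1 1. For ICM 3-4 against WT the 9 mitochondrial calls became 3 to 4 when 1 library was left out. The 7 nuclear calls became 16 with compared libraries only, 2 to 3 when 1 library was left out, and 21 without ICM 1 and siBANF1 1. For ICM 3-4 against ICM 1-2 the 1 mitochondrial call became 8 with no filter, 3 by DESeq2, 0 with compared libraries only, 1 to 2 when 1 library was left out (2 without ICM 2), and 10 without ICM 1 and siBANF1 1. The 6 nuclear calls became 1 with compared libraries only, 1 to 13 when 1 library was left out (1 without ICM 1, 13 without ICM 2, 2 without ICM 3, 1 without ICM 4), and 13 without ICM 1 and siBANF1 1.

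Among the knockdowns, where edgeR called 0 members, siHMGB2 against WT had 5 nuclear calls with compared libraries only, all lower. That fit called 4.74% of all genes lower and 6.14% higher. The libraries labelled siSRRM2 had 9 mitochondrial calls with no filter and 1 without ICM 1 and siBANF1 1, and 1 nuclear call by DESeq2 and 1 without those libraries. The libraries labelled siBANF1 had 4 mitochondrial calls with no filter. Of 33733 genes, 814 were called with no filter for siSRRM2 and 161 for siBANF1. Without ICM 1 and siBANF1 1, an alternative chosen after the data were seen, ND4L changed sign in ICM 3-4 against ICM 1-2 (2.4, from -0.16) and COX3 in siSRRM2 against ICM 1-2 (1.17, from -0.74), both then called. COX1 (0.51) and ND3 (0.82) changed sign in the first comparison without a call. The cause of these shifts was not tested.

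Replicate numbers are shared between groups, but with 2 pairs each and no label saying what a number marks they were not taken as pairs. Deviations of same-numbered libraries correlated at 0.16 (WT and siHMGB2), -0.25 (WT and ICM 1-2), 0.12 (ICM 1-2 and siSRRM2) and 0.87 (ICM 1-2 and siBANF1). The median chi-square per gene between 2 scaled libraries was 50.8 for ICM 1 and ICM 2. Against the same-numbered siBANF1 it was 11.6 and 3.18. It was 10.1 for ICM 3 and ICM 4, but 2.68 for ICM 3 and siCTCF 1 and 1.75 for ICM 4 and siCTCF 2. Replicate numbers differ between ICM 3-4 and siCTCF, so no block was fitted there. The fits of siBANF1 and siCTCF without pairs counted these differences as error. With the replicate block ICM 1-2 against WT had 11 mitochondrial calls, all lower, and 0 nuclear calls. That fit called 4.22% of all genes lower and 2.9% higher. With the block siHMGB2 against WT had 8 nuclear calls, all lower, where 7.01% of all genes were called lower. NDUFS1 (3 counts in all) and NDUFS3 (14) were not tested, and ATP8 rested on 946 counts.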
